A study of Rattus norvegicus with 9 samples.

Results

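The genes described here encode 9 liver enzymes of amino acid breakdown, namely the transaminases Got1, Got2, Gpt, Tat, Oat and Agxt, glutamate dehydrogenase (Glud1), serine dehydratase (Sds) and the tyrosine breakdown enzyme hydroxyphenylpyruvate dioxygenase (Hpd). After symbols were updated, 10411 genes are named on the array. The 9 were taken by gene symbol from the platform annotation, which assigns them 11 of the 15923 probe sets. Got2 and Glud1 have 2 each and every other gene has 1. All 11 passed the filter on dim signals, as did 13535 probe sets in all. The samples are total RNA from whole rat liver on 9 arrays, with 3 arrays in each of 3 groups. Going by their names, the Sham-Sham control had sham procedures only, Sham-CLP had a sham procedure and CLP, and Burn-CLP had a burn and CLP. CLP is not spelled out in the labels and in rodent work means cecal ligation and puncture, a model of abdominal sepsis. No group had a burn without CLP, so a burn effect apart from CLP cannot be told apart here. Strain, age, sex, burn size and the time of sampling are not given in the sources used here, nor whether each array is a separate animal. The p-values therefore measure the spread between arrays, which may be technical.

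Transaminases carry the amino group of an amino acid to a keto acid, usually alpha-ketoglutarate, with pyridoxal phosphate as cofactor, and the glutamate they form is opened by glutamate dehydrogenase to release ammonia for the urea cycle. The carbon skeletons that remain, such as pyruvate and oxaloacetate, can enter gluconeogenesis. In fasting and injury the liver takes up amino acids released from muscle, and several of these enzymes, above all tyrosine aminotransferase and serine dehydratase, are textbook targets of glucocorticoids and glucagon.

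Values are signals on a linear scale after quantile normalization, and changes are on the log2 scale with their standard error (SE) from 1 limma fit of all 9 arrays. A probe set was called at a Benjamini-Hochberg adjusted p under 0.05 over the 13535 probe sets. The level of 1 probe set cannot be set against that of another. The first Sham-Sham array was the least like the others, its correlation with them averaging 0.907 where every other array averaged 0.937 to 0.958. The tissue label was set beside 7 hepatocyte markers. Their summed signal spanned 154620 to 164280 (Sham-Sham), 158300 to 169020 (Sham-CLP) and 156720 to 165720 (Burn-CLP). Quantile normalization sets such top signals by their rank, and Alb averaged 35039 in both Sham-Sham and Burn-CLP. Near-equal sums therefore cannot show that hepatocyte content was equal. In Burn-CLP against Sham-Sham, Cps1 was higher (0.48 ± 0.17, limma adjusted p = 0.185) and Ttr lower (-0.34 ± 0.15, 0.253), both without overlap. The summed signal of 4 neutrophil markers spanned 474 to 627, 526 to 912 and 739.97 to 1674 in that order. S100a9 among them rose in Burn-CLP against Sham-Sham (log2 change 2.80 ± 0.40, limma adjusted p = 0.0239). Its Sham-Sham mean of 45.37 lay under the floor of 64.3. The other neutrophil markers were not called in that comparison. S100a8 differed by 1.105 ± 0.42 with overlap, Cybb by 0.56 ± 0.26 without overlap and Ncf1 by -0.15 ± 0.30 with overlap. The sums therefore do not show that all 4 markers rose. The summed signal of 3 red blood cell genes spanned 12602 to 15826, 11334 to 12517 and 9806 to 11820 in the same order of groups. That of 6 stellate cell and fibroblast genes spanned 5744 to 6189.6, 4164 to 5953 and 3974 to 5129.8. Of either list 0 were called by limma. In Burn-CLP against Sham-Sham 2 of 3 and 1 of 6 had an unadjusted p under 0.05, beside 19.9% of all probe sets. Lymphocyte genes (8 tested) summed to 1319.6 to 1813, 1253.5 to 1277 and 1469 to 1533, so the Sham-CLP sums lay below both other groups. Of the 8 genes, 3 had an unadjusted p under 0.05 in Sham-CLP against Sham-Sham, beside 11.7% of all probe sets. Macrophage genes (5 tested) summed to 11374 to 12331, 10924 to 13213 and 11907 to 15077. In Burn-CLP against Sham-Sham Csf1r differed by 1.02 ± 0.32 (adjusted p = 0.145), with groups that overlapped. There Cd14 differed by 0.65 ± 0.30, Cd68 by 0.33 ± 0.28, Clec4f by 0.08 ± 0.22 and Ctsb by -0.15 ± 0.15. Endothelial genes (3 tested) summed to 2032 to 2326, 1496 to 2078 and 1428.5 to 2479, bile duct genes (5 tested) to 1251 to 1425, 1224 to 1349.6 and 1275 to 1834, and skeletal muscle genes (2 tested) to 365 to 691, 316 to 339 and 338 to 394. Of all these marker genes, limma called S100a9 alone. The part of such cells in the values below was not tested, and in whole tissue fewer cells of a type and less RNA per cell cannot be told apart.

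Got1, the cytosolic aspartate aminotransferase that leaks from injured liver as the clinical marker AST, changed most clearly of the 9 genes. Its signal was 2963, 3702 and 2936 in Sham-Sham, 8883, 10029 and 6277 in Sham-CLP, and 16399.9, 17576 and 14331 in Burn-CLP. The groups did not overlap in any pair and stepped upward from the control through CLP alone to burn and CLP, as 0.731% of the tested probe sets did without overlap and no other member did. In Burn-CLP, Got1 rose 5.04-fold over Sham-Sham (2.33 ± 0.21 on the log2 scale, adjusted p = 0.00254, with 3 arrays in each group), the fifth smallest p of all probe sets. In Sham-CLP it differed from Sham-Sham by 1.37 ± 0.21 without passing (adjusted p = 0.0779), a 2.59-fold difference of means whose 95% interval ran from 1.86 to 3.60. Burn-CLP differed from Sham-CLP by 0.96 ± 0.21 (adjusted p = 0.278), also without passing. The Burn-CLP rise kept its call in all 18 alternative analyses, with log2 changes of 2.24 to 2.45. Without Sham-Sham 3 the Sham-CLP difference passed as well (1.31, adjusted p = 0.0358).

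Got2, the mitochondrial aspartate aminotransferase, catalyses the same reaction on the other side of the inner mitochondrial membrane. Its bright probe set read 6128, 6654 and 6226 in Sham-Sham, 6360, 6277 and 6512 in Sham-CLP, and 5525, 5282 and 5574 in Burn-CLP. The Burn-CLP arrays lay below all 6 others by a small margin, and the change from Sham-Sham was -0.21 ± 0.14 (adjusted p = 0.428) with a 95% interval from -0.54 to 0.11. In Sham-CLP the change was 0.01 ± 0.14 (adjusted p = 0.984), with an interval from -0.31 to 0.33. With the deposited scaling, Burn-CLP 3 (5666) lay above Sham-Sham 1 (5521). The Burn-CLP change from Sham-Sham was then -0.15 (limma adjusted p = 0.599). The second Got2 probe set was above the floor of 64.3 on only 4 of 9 arrays, with signals between 33.7 and 185.8, so its differences carry little information.

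The shift of Got1 against Got2 within each array was followed directly, as the log2 signal of Got1 minus that of the bright Got2 probe set. This difference was -1.05, -0.85 and -1.085 in Sham-Sham, 0.48, 0.68 and -0.05 in Sham-CLP, and 1.57, 1.73 and 1.36 in Burn-CLP. It stood 1.36 higher in Sham-CLP than in Sham-Sham, 2.55 higher in Burn-CLP than in Sham-Sham and 1.19 higher in Burn-CLP than in Sham-CLP. The groups did not overlap in any pair, and each two-sided exact permutation test gave p = 0.1, the smallest that 3 arrays against 3 can give. With 3 arrays in each group this test cannot reach a threshold of 0.05. Against Sham-Sham the bright Got2 probe set changed by 0.01 in Sham-CLP and -0.21 in Burn-CLP. The difference therefore largely restates the Got1 changes given above and is not a separate result.

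**Figure D1:**
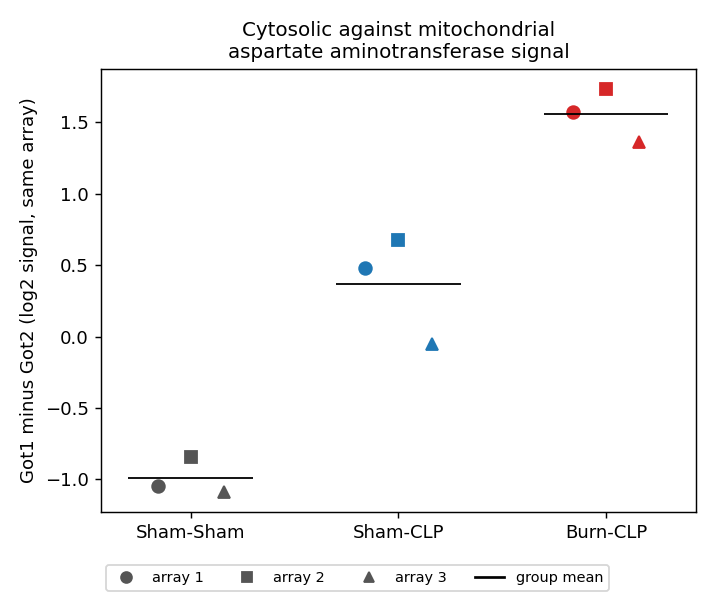
The log2 signal of Got1 minus that of the bright Got2 probe set (vertical axis) on each array, by group, with 1 point per array and a line at the group mean. The 3 Sham-Sham arrays lie between -1.085 and -0.85, the Sham-CLP arrays between -0.05 and 0.68 and the Burn-CLP arrays between 1.36 and 1.73; the height of the axis itself has no meaning because different probe sets bind with different strength.

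Promoter windows of RefSeq (GRCr8, 250 bases before to 50 after a transcription start) were at hand for 7 of the 9 genes, and are shown for the aspartate aminotransferase pair, whose signals moved apart, and for Tat and Oat, the other members whose windows hold more than 1 of the boxes marked below. Capitals mark each CCAAT box, a motif bound by the factor NF-Y, on either strand (CCAAT or ATTGG), which was chosen for display after the matches of all 6 motifs searched had been seen. The Got1 window lies inside the annotated gene, downstream of its outermost start.
Got1, chr1:252329822-252330121, minus strand: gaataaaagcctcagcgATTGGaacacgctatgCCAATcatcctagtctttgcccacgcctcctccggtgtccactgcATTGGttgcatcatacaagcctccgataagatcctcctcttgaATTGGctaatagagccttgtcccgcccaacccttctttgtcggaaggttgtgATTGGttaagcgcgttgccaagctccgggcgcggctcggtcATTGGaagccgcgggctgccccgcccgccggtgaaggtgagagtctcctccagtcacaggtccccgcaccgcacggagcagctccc
Got2, chr19:9180178-9180477, plus strand: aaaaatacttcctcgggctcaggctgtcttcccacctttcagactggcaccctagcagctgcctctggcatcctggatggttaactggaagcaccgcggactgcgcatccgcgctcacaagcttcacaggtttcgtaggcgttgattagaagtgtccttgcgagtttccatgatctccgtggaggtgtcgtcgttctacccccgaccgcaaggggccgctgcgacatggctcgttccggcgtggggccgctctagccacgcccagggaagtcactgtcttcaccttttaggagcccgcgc
Tat, chr19:54856354-54856653, plus strand: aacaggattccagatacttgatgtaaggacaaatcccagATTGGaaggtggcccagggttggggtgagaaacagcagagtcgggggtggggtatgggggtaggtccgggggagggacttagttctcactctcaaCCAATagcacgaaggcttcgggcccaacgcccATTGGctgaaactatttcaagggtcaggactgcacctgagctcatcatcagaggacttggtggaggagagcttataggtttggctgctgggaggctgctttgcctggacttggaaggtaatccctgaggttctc
Oat, chr1:196797705-196798004, minus strand: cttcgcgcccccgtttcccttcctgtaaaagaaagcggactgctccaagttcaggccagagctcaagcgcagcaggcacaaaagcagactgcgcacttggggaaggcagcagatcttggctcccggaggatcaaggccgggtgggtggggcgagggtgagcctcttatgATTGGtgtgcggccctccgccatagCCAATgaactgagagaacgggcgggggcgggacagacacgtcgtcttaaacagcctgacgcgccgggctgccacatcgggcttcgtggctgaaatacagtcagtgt
The Got1 window holds 6 CCAAT boxes, a number that 0.0418% of all 33469 windows of this length reach. Tat has 3 (3.02% of windows have at least 3), Oat has 2 (11.2% have at least 2) and Got2 has 0, while 37.5% of windows have at least 1. Of the member windows not printed, those of Hpd and Glud1 hold 0, and the 2 windows of Agxt hold 0 and 1. Whether the boxes bear on the signals was not tested. Of the 6 motifs searched on both strands, the other 5 were TGTTCT (the core of glucocorticoid response elements, in 20.7% of all windows), TTGCNNAA (C/EBP, 10.6%), TGACGTCA (cAMP response element, 1.83%), TATAAA (bound by TBP, 14.2%) and TGTTTAC (forkhead factors, 3.78%). None of these 5 occurred in the windows shown, and TGTTCT occurred once among the members, in 1 of the 2 Agxt windows. A match of letters is a description of the window, not a binding site, and an absent match says nothing of a factor.

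Sds, the cytosolic enzyme that turns serine into pyruvate and ammonia, had the largest change among the members in both comparisons of Burn-CLP, though without Sham-Sham 3 its change from Sham-Sham (2.17) was below that of Got1 (2.29). Its signal was 2538, 3476 and 819 in Sham-Sham, 4309, 4197 and 3033 in Sham-CLP, and 12559.5, 17809.7 and 10505 in Burn-CLP. All Burn-CLP arrays lay above all others, whereas the lowest Sham-CLP array lay below the highest Sham-Sham array. Sds rose 6.88-fold in Burn-CLP over Sham-Sham (log2 change 2.78 ± 0.47, adjusted p = 0.0372), with a 95% interval from 3.32-fold to 14.2-fold. The difference of Burn-CLP from Sham-CLP was 1.81 ± 0.47, or 3.50-fold, without passing (adjusted p = 0.355), and that of Sham-CLP from Sham-Sham was 0.97 ± 0.47 (adjusted p = 0.453). With an array left out the latter lay between 0.36 (without Sham-Sham 3) and 1.404 (without Sham-Sham 2). The rise in Burn-CLP kept its call in 9 of 18 alternative analyses. It was lost without the first Sham-Sham array (adjusted p = 0.0807), without array 1, 2 or 3 of the CLP group (0.0653, 0.0678 and 0.0532) and without array 1 or 2 of the burn group (0.0992 and 0.148), and also with a floor at the 10th percentile (0.0612), with no filter (0.0806) and with only the 2 groups fitted (0.124), while the log2 change stayed between 2.17 and 3.21 over all arrays left out in turn. The lowest of these values came without Sham-Sham 3, the array with the low Sds signal, where the call held (adjusted p = 0.00958).

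Of the serine synthesis genes, 1 of 3 fell. Phgdh, the dehydrogenase that commits a glycolytic intermediate to serine, read 422, 269.6 and 273 in Sham-Sham, 199, 228 and 259 in Sham-CLP, and 129, 69.9 and 136 in Burn-CLP. The groups did not overlap, and stepped downward from the control through CLP alone to burn and CLP, as 0.813% of tested probe sets did. Phgdh fell in Burn-CLP by 1.56 ± 0.29 on the log2 scale (adjusted p = 0.0475). Its value on Burn-CLP 2 (69.9) lay near the floor of 64.3. The log2 change was -1.31 with a pseudocount in place of the floor, and -1.741 to -1.251 with an array left out. The call in Burn-CLP was kept in 5 of 18 alternatives. It was lost with the deposited scaling (adjusted p = 0.0612), the 10th percentile floor (0.073), a pseudocount (0.0552), no filter (0.0817), only the 2 groups fitted (0.143) and the replicate block (0.061). It was also lost without array 1 or 2 of the control (0.113 and 0.0937), array 1, 2 or 3 of the CLP group (0.0833, 0.0923 and 0.0634) or array 1 or 2 of the burn group (0.0992 and 0.133). Psat1, the transaminase of the next step, differed by -0.98 ± 0.27 (adjusted p = 0.112), with signals of 272, 319 and 177 in Sham-Sham and 98.1, 123 and 167 in Burn-CLP. Without Sham-Sham 3 it passed (-1.22, adjusted p = 0.0366). Psph, the last enzyme of the path, differed by -0.17 ± 0.27 (adjusted p = 0.755). In Sham-CLP none of the 3 genes passed in the limma fit (0 also at an unadjusted p under 0.05), with Phgdh at -0.47 ± 0.29.

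Tat, which starts tyrosine breakdown by removing its amino group, split the Sham-CLP group. Its signal was 3467, 5198 and 2978 in Sham-Sham, 8119, 9682 and 1981 in Sham-CLP, and 11853, 14099 and 10111 in Burn-CLP. Sham-CLP 3 had the lowest value of all 9 arrays, and the other two Sham-CLP arrays lay above every Sham-Sham array. Burn-CLP did not overlap with Sham-Sham and stood 1.66 ± 0.52 higher, or 3.16-fold, without passing (adjusted p = 0.145). The Sham-CLP difference from Sham-Sham was 0.51 ± 0.52 (adjusted p = 0.705), and without Sham-CLP 3 it was 1.24 (adjusted p = 0.247). Without that array the Burn-CLP difference from Sham-Sham passed (1.66 in the full fit, 1.665 without it, adjusted p = 0.0374), while the difference between Burn-CLP and Sham-CLP went from 1.15 ± 0.52 to 0.43.

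Hpd catalyses the step after Tat. It read 22041, 20496 and 17662 in Sham-Sham, 20703, 23609 and 20496 in Sham-CLP, and 24136, 24006 and 22981.5 in Burn-CLP. Burn-CLP lay above all Sham-Sham arrays, but the change was small at 0.25 ± 0.16 (adjusted p = 0.411), with a 95% interval from -0.11 to 0.60. With the deposited scaling, Sham-CLP differed from Sham-Sham by 0.39 instead of 0.11, and neither passed (adjusted p = 0.336 and 0.8). Burn-CLP minus Sham-CLP turned from 0.14 to -0.11 under that scaling. The mean log2 signal of Hpd lay at percentile 99.8 of the probe sets, and that of the brighter Glud1 probe set at 99.3. Quantile normalization sets such top signals by their rank, so small changes there cannot show that the RNA level changed little.

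Oat, the mitochondrial enzyme that links ornithine to glutamate and proline, was higher on all 6 arrays with CLP than on any Sham-Sham array. Its signal was 3787, 2257 and 2437 in Sham-Sham, 6679, 7893 and 3968 in Sham-CLP, and 5419, 9682 and 6512 in Burn-CLP. Sham-CLP differed from Sham-Sham by 1.11 ± 0.32 (adjusted p = 0.306) and Burn-CLP by 1.35 ± 0.32 (adjusted p = 0.0802), neither of which passed. Both comparisons share the Sham-Sham arrays. Burn-CLP and Sham-CLP overlapped, with a difference of 0.24 ± 0.32 and an interval from -0.49 to 0.96, and the sign of this difference turned without Sham-CLP 3 (-0.05). With a prior on the spread that follows signal intensity, the Burn-CLP difference from Sham-Sham passed (adjusted p = 0.0433).

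Gpt, the alanine aminotransferase known clinically as ALT, varied within groups more than between Sham-Sham and Sham-CLP. Its signal was 3126, 2473 and 952 in Sham-Sham, 2478, 2306 and 721 in Sham-CLP, and 4694, 3702 and 2865 in Burn-CLP. All Burn-CLP arrays lay above all Sham-CLP arrays (1.198 ± 0.54, adjusted p = 0.551) but not above all Sham-Sham arrays (0.92 ± 0.54, adjusted p = 0.365). The Sham-CLP difference of -0.28 ± 0.54 turned to 0.06 without Sham-Sham 1 and to 0.29 without Sham-CLP 3. The Burn-CLP difference from Sham-Sham was 0.41 without Sham-Sham 3, and that from Sham-CLP was 0.62 without Sham-CLP 3. The intervals of the Burn-CLP differences ran from -0.29 to 2.13 against Sham-Sham and from -0.011 to 2.41 against Sham-CLP, the upper ends being 4.37-fold and 5.30-fold.

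Agxt, the alanine-glyoxylate aminotransferase that removes glyoxylate, and Glud1 did not pass the test in any comparison. Agxt read 1674, 2225 and 1642 in Sham-Sham, 2027, 1796 and 1807 in Sham-CLP, and 1826, 4066 and 1933 in Burn-CLP. Its Burn-CLP mean was raised by Burn-CLP 2 alone, and the change from Sham-Sham was 0.41 ± 0.30 (adjusted p = 0.459) with that array and 0.04 without it. The brighter Glud1 probe set ran from 10201 to 14048 in Sham-Sham, from 10922 to 12068.5 in Sham-CLP and from 11770.4 to 13885 in Burn-CLP. Its changes were -0.01 ± 0.17 in Sham-CLP and 0.10 ± 0.17 in Burn-CLP, with intervals from -0.41 to 0.38 and from -0.29 to 0.49. The dimmer Glud1 probe set differed by 0.22 ± 0.24 and 0.15 ± 0.24 in the same comparisons.

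**Figure D2:**
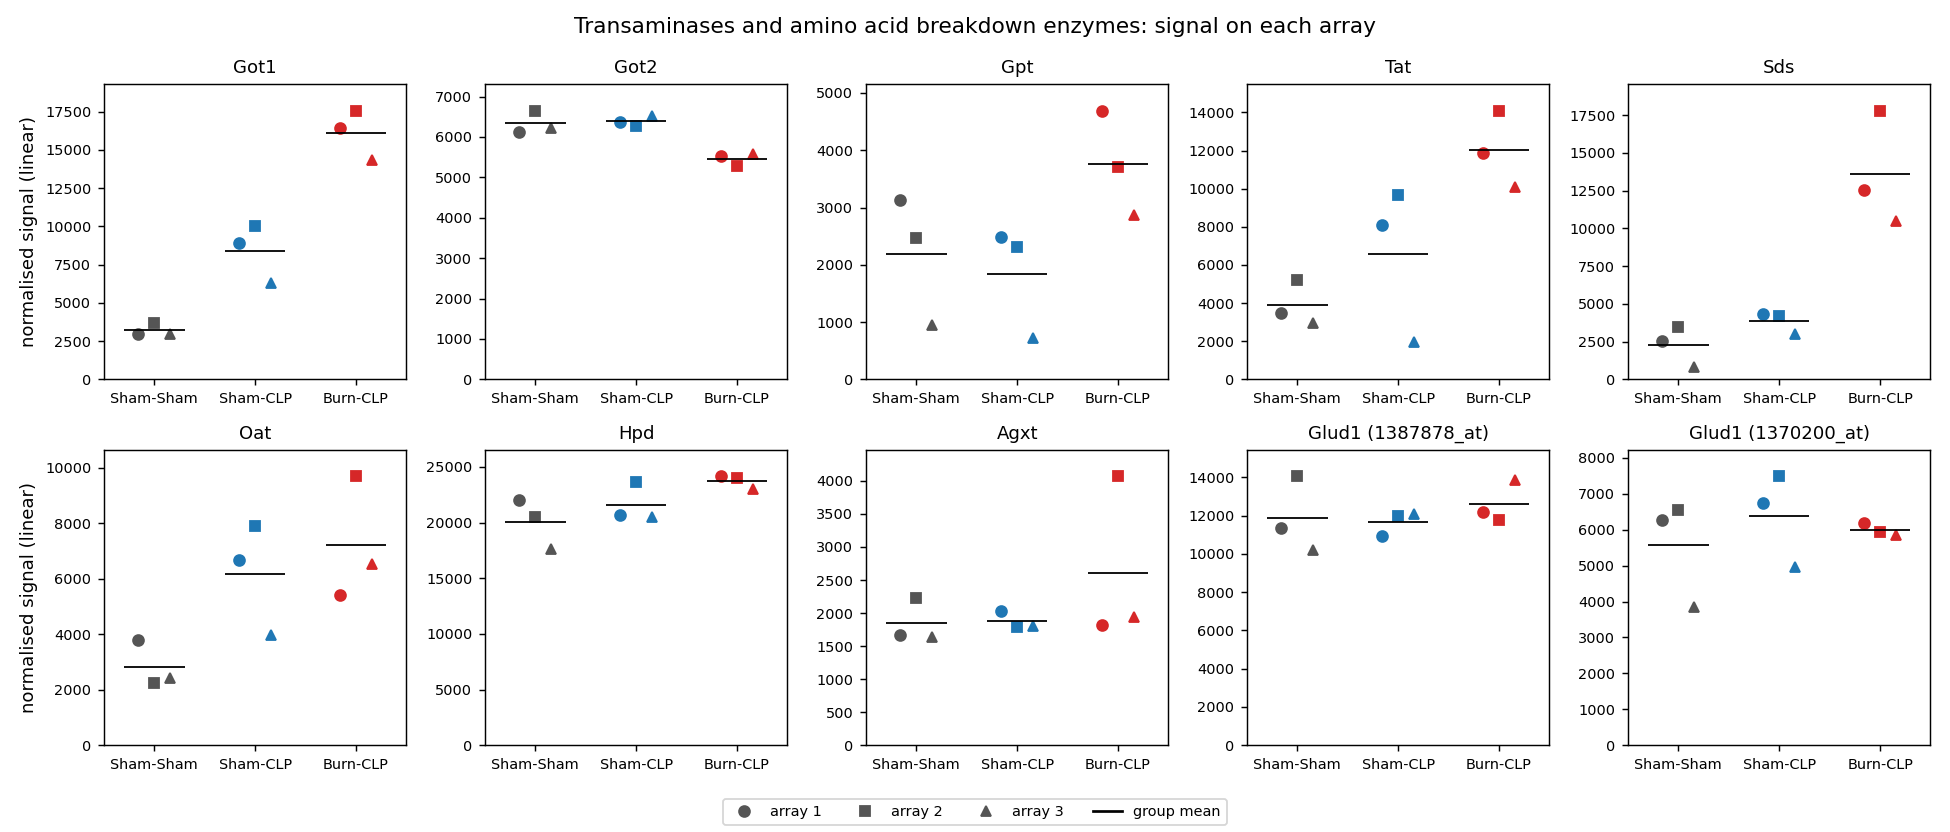
Normalised signal (linear vertical axis, from 0) of the 10 member probe sets above the floor on all 9 arrays, by group, with 1 symbol per array number and a line at the group mean. Got1 steps up from 3200.2 through 8396 to 16102 on average, Sds stands apart only in Burn-CLP, the bright Got2 probe set lies between 5282 and 6654, the dim Got2 probe set is not drawn, and Sham-CLP 3 (blue triangle) is low for Tat and Gpt.

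Counted over the 11 probe sets, 2 were called in Burn-CLP against Sham-Sham, both higher, where 0.746% of all tested probe sets were called, and 4 (Got1, Sds, Oat and Tat) had an unadjusted p under 0.05, beside 19.9% of all. In Sham-CLP against Sham-Sham 0 of 11 were called by limma, against 0.0591% of all, and 2 of 11 (Got1 and Oat) had an unadjusted p under 0.05, beside 11.7% of all probe sets. In Burn-CLP against Sham-CLP 0 of 11 were called by limma, against 0.0148% of all, and again 2 (Got1 and Sds) had an unadjusted p under 0.05, beside 9.09% of all. Groups did not overlap for 2 members in Sham-CLP against Sham-Sham (16.7% of all probe sets), for 6 in Burn-CLP against Sham-Sham (21.5%) and for 5 in Burn-CLP against Sham-CLP (18.8%). The 6 were Got1, Tat, Sds, Oat and Hpd, all higher, and the bright Got2 probe set, lower. With the deposited scaling the groups overlapped for that Got2 probe set. The median change of the 11 probe sets was 0.11 in Sham-CLP and 0.41 in Burn-CLP against Sham-Sham, and 0.24 between both, while the medians over all tested probe sets were 0.00492, 0.00895 and 0.0194. Because the members were chosen with earlier results of these data known, these counts and medians are a description and not a test of enrichment.

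**Figure D3:**
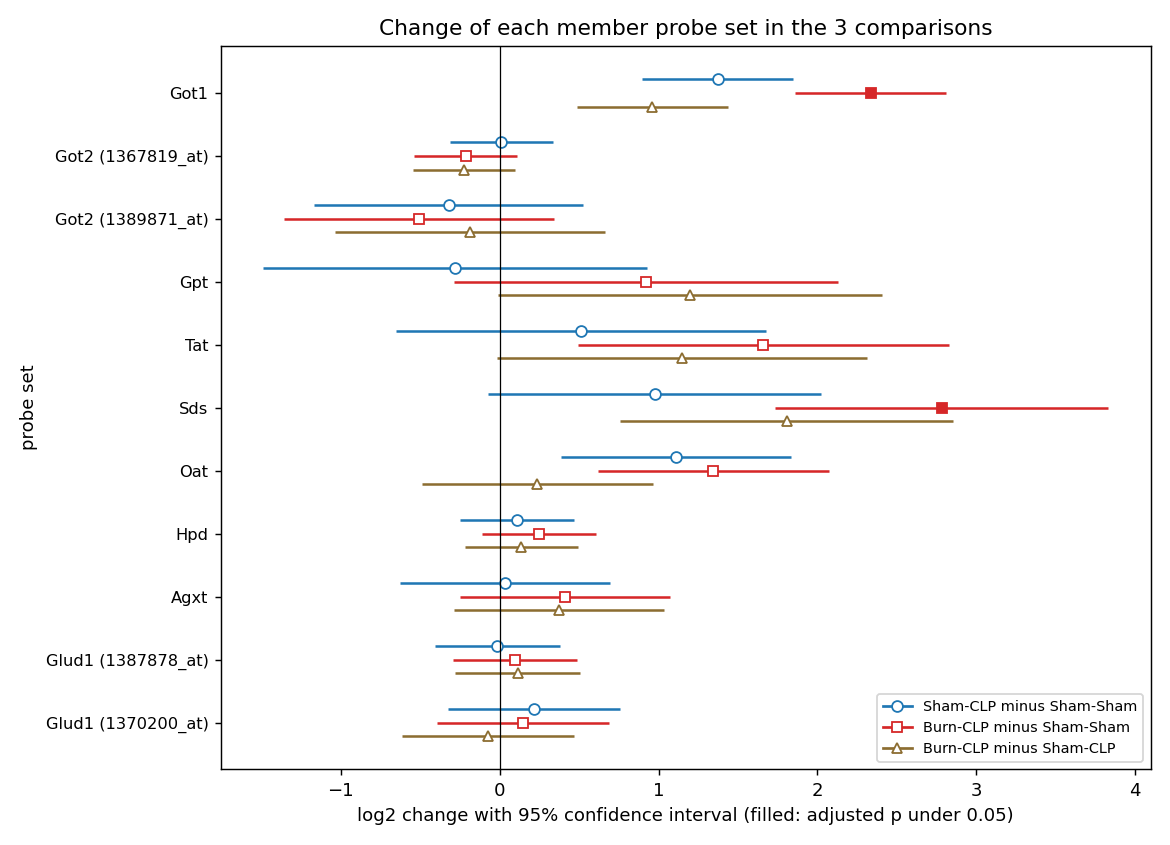
Log2 change of each member probe set (horizontal axis) with its 95% confidence interval in the 3 comparisons, given by colour and symbol; filled symbols are called. Only Got1 (2.33) and Sds (2.78) in Burn-CLP against Sham-Sham are filled, and the intervals of Gpt and Tat are among the widest.

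Sham-Sham 3 was the lowest array of its group for 9 of the 11 probe sets, where it was lowest for 33.7% of all tested probe sets. Sham-CLP 3 was lowest for 7 of 11 (35.7% of all) and Burn-CLP 3 for 6 of 11 (34.3%), while Sham-Sham 2 was the highest of its group for 7 of 11 (28.9%). Within groups, the highest over the lowest signal was 5.52 for the dim Got2 probe set in Sham-Sham, which lies about the floor, and among the other 10 probe sets it reached 4.89 for Tat in Sham-CLP, 4.24 for Sds in Sham-Sham and 3.43 for Gpt in Sham-CLP, against 1.04 for the bright Got2 probe set in Sham-CLP. The members share each array, so these counts are not independent of each other.

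Around these enzymes, 49 genes of 8 lists were followed, of which 34 were tested. In Burn-CLP against Sham-Sham 0 rose and 1 fell, the Phgdh gene given above, and 10 of 34 had an unadjusted p under 0.05, beside 19.9% of all probe sets. In Sham-CLP against Sham-Sham and in Burn-CLP against Sham-CLP limma called 0 in either direction, with 1 and 6 of 34 at an unadjusted p under 0.05, beside 11.7% and 9.09% of all. The median change over the 34 genes was -0.03 in Burn-CLP against Sham-Sham, beside 0.00895 over all tested probe sets. The 3 pyridoxal phosphate supply genes were not matched to a probe set and are not analysed here.

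In the malate-aspartate shuttle, which carries reducing equivalents into mitochondria and in which Got1 and Got2 take part, 0 of 5 other genes passed. Mdh1, the cytosolic malate dehydrogenase, read 5887, 5822 and 5330.2 in Sham-Sham, 7539, 7097 and 5601 in Sham-CLP, and 9298, 11521 and 9613 in Burn-CLP. Burn-CLP did not overlap with either other group, and the change from Sham-Sham was 0.83 ± 0.18 (adjusted p = 0.0649), with 0.48 at its other probe set. With the intensity trend in the spread it passed (adjusted p = 0.0194). Slc25a11, the carrier that exchanges malate for alpha-ketoglutarate, differed by 0.56 ± 0.18 (adjusted p = 0.145) and also did not overlap. The mitochondrial Mdh2 differed by -0.17 ± 0.15 and the aspartate-glutamate carriers Slc25a12 and Slc25a13 by 0.01 ± 0.23 and -0.02 ± 0.20.

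**Figure D4:**
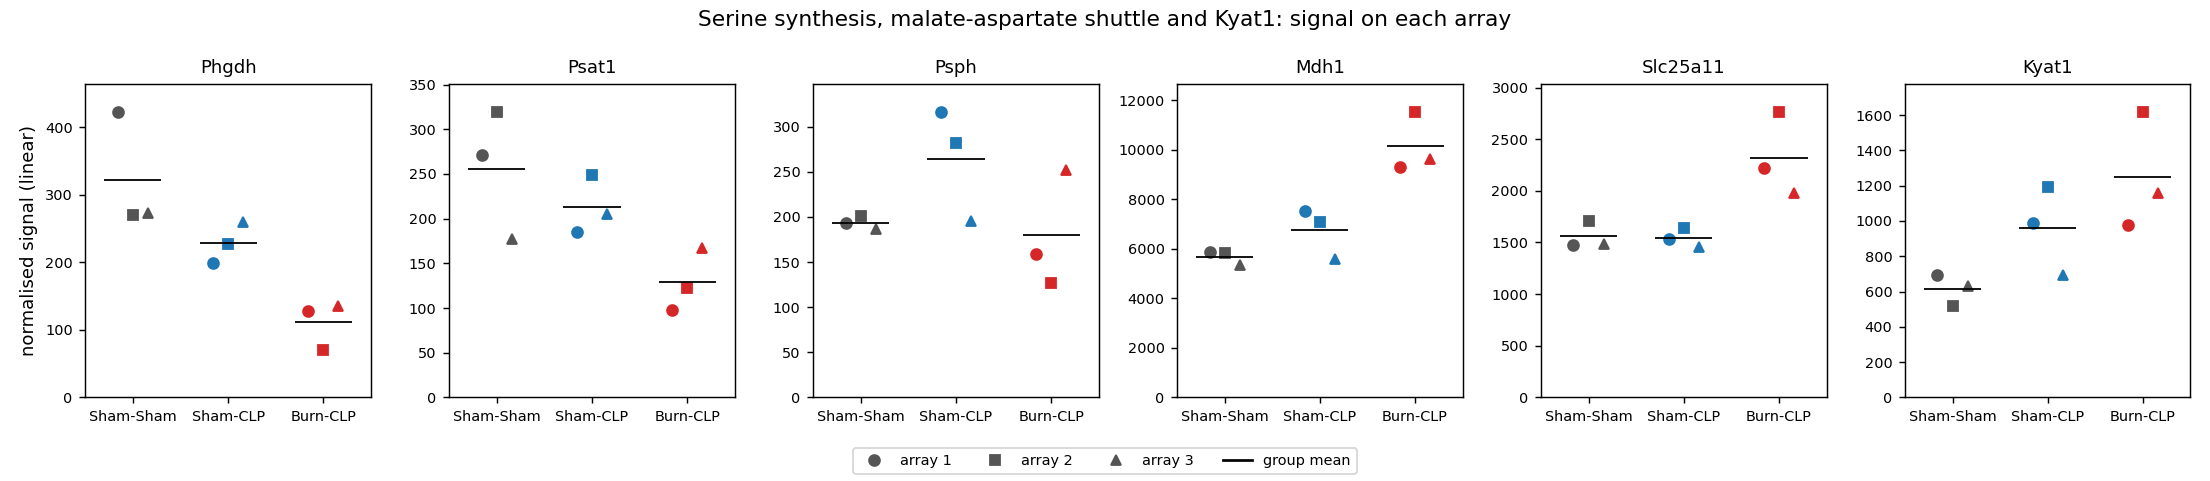
Normalised signal (linear vertical axes, from 0) of the 3 serine synthesis genes, of Mdh1 and Slc25a11 of the malate-aspartate shuttle and of the transaminase gene Kyat1 on each array, by group, with a line at the group mean. Phgdh falls to 69.9 to 136 in Burn-CLP from 269.6 to 422 in Sham-Sham and is the only one of the 6 that passed the test.

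Among other transaminases 0 of 5 tested genes passed. Kyat1, a kynurenine and glutamine transaminase, was nearest with 1.00 ± 0.26 in Burn-CLP (adjusted p = 0.0953) and signals of 696, 519 and 632 in Sham-Sham against 979.9, 1617 and 1157 in Burn-CLP. In the tyrosine and phenylalanine list 0 of 3 tested genes passed, with Qdpr, which regenerates the cofactor of phenylalanine hydroxylase, at 0.40 ± 0.20 and Gstz1, the enzyme after homogentisate oxidation, at 0.14 ± 0.17. In serine, glycine and threonine breakdown 0 of 9 passed. Grhpr, which reduces glyoxylate, differed by -0.50 ± 0.18, and Gcsh, a subunit of the glycine cleavage system, by -0.46 ± 0.17, both without overlap and with adjusted p = 0.188 and 0.199. In the proline and ornithine list 0 of 5 passed. Aldh4a1, which oxidises the semialdehyde that Oat forms, differed by -0.54 ± 0.18 (adjusted p = 0.154) with all Burn-CLP arrays below all Sham-Sham arrays, and P4ha1, a prolyl hydroxylase subunit, by 0.37 ± 0.16. In alanine, aspartate and glutamate breakdown 0 of 5 passed, with Glul (glutamine synthetase) at 0.41 ± 0.21 and the liver glutaminase Gls2 at 0.33 ± 0.19.

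The genes whose log2 signal followed Got1 most closely over the 9 arrays were Slc38a4, an amino acid transporter gene (Pearson r = 0.9924), Tmem131 (0.9836) and Eif4ebp3, which encodes a translation repressor (0.9766). Slc38a4 differed by 1.22 in Burn-CLP and 0.68 in Sham-CLP from Sham-Sham, and Eif4ebp3 by 2.43 and 1.475. For Sds the nearest were Slc30a9 (0.9684), Ranbp9 (0.9613) and Pdhb (0.9547), and for Tat they were Pcsk6 (0.965), G3bp1 (0.9631) and the gene annotated as G4 (0.9553). The arrays fall into 3 groups and share their normalization, so these correlations over 9 arrays describe a common order of arrays and carry no test.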

How the data were processed

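The authors deposited linear intensity values for each probe set of each array. These had already been brought to a common scale, since the mean with 2% trimmed from either end was 500.14 to 500.17 on all arrays; the software is not named in the labels. Arrays were quantile normalized (deposited medians were 205 to 268.1), values under the 20th percentile over all arrays (64.3) were raised to it as a floor, and the result was taken to log2. Probe sets above the floor on at least 3 arrays were tested, leaving out 57 control probe sets. Symbols were updated to RefSeq GRCr8 for 12748 probe sets by Entrez identifier and for 2 by accession.

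The 3 groups were compared with limma 3.58.1 (R 4.3.3; lmFit, eBayes) in 1 fit, with Benjamini-Hochberg adjustment, and the Got1 against Got2 difference by an exact permutation test. The steps were tested on simulated data. The number of arrays limits the precision. The members and lists were chosen with earlier results of these data known. Every member is reported; from each list the called genes are named, or else the 2 with the smallest p in Burn-CLP against Sham-Sham, and for called members and Tat the 3 genes with the most similar signal. Other genes given beside these (Psph, Mdh2, Slc25a12, Slc25a13 and the markers) complete a list or group and were added after their values were seen. For a list gene with several probe sets the brightest was used. The alternatives were another scaling, floor, filter, fit, weighting or spread prior, a replicate block, and leaving out each array. Those for Phgdh, Psat1, Mdh1, Kyat1 and Slc25a11 were chosen after seeing the data.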

Additional observations from a re-analysis of the deposited data

How the results depend on the processing

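The count of member probe sets called in Burn-CLP against Sham-Sham was 2 in the reported analysis, and 1 with a floor at the 10th percentile, with no filter or with only the 2 groups compared, and 3 with an intensity trend in the spread; leaving out each array gave 1 to 2. In Sham-CLP against Sham-Sham it was 0, and 1 (Got1) with array weights or an intensity trend in the spread; leaving out each array gave 0 to 1. In Burn-CLP against Sham-CLP it was 0 throughout these alternatives. Over all probe sets, the count in Sham-CLP against Sham-Sham was 8, and 4 with the deposited scaling, 69 with array weights and 4 to 347 with an array left out. In Burn-CLP against Sham-Sham it was 101, and 53 with the lower floor, 13 with only the 2 groups, 262 with array weights, 280 with the intensity trend and 19 to 645 with an array left out. In Burn-CLP against Sham-CLP it was 2, and 1 with the deposited scaling, 4 with the lower floor or no filter, 0 with a pseudocount of 32 in place of the floor, with all 9 arrays above the floor or with only the 2 groups, 47 with array weights, 6 with the intensity trend and 0 to 36 with an array left out. Among the analyses with an array left out, the largest counts came without Sham-Sham 3 in both comparisons with Sham-Sham and without Burn-CLP 3 in the other; the cause was not tested.

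With the replicate number as a block the counts over all probe sets were 4, 59 and 0 in the same order, the members called in Burn-CLP against Sham-Sham were again Got1 and Sds (adjusted p = 0.00418 and 0.0217), and Phgdh was not called (0.061). Deviations of same-numbered arrays correlated between -0.026 and 0.081, and those of differently numbered arrays between -0.072 and 0.037. Whether the numbers pair the arrays was not tested. The Got1 minus Got2 difference kept its sign in every alternative run for it. Signs turned only for changes that were not called. With the deposited scaling these were the brighter Glud1 probe set (0.1863 in Sham-CLP against Sham-Sham, -0.08171 in Burn-CLP against Sham-CLP), Hpd (-0.1127 in the latter) and Slc25a11 (0.03722 in the former). With array weights they were Got2 (-0.03186) and Agxt (-0.1102) in Sham-CLP and the brighter Glud1 probe set (-0.03492) in Burn-CLP, each against Sham-Sham. With an array left out, Sham-CLP against Sham-Sham spanned -0.01138 to 0.04836 for the bright and -0.5798 to 0.1927 for the dim Got2 probe set, -0.1205 to 0.113 for the brighter and -0.02733 to 0.3924 for the dimmer Glud1 probe set, -0.7935 to 0.2946 for Gpt, -0.04279 to 0.1748 for Agxt and -0.05647 to 0.05859 for Slc25a11. Burn-CLP against Sham-Sham spanned -0.005542 to 0.2292 and -0.09993 to 0.2826 for both Glud1 probe sets and -0.7655 to 0.001738 for the dim Got2 one. Burn-CLP against Sham-CLP spanned -0.04988 to 0.4416 for Oat, -0.2488 to 0.05504 for the dimmer Glud1 probe set and -0.281 to 0.007045 for the dim Got2 one. The dim Got2 probe set could not be fitted in 1 alternative, where all 9 arrays had to be above the floor. Probe sets near the floor, such as the second for Got2, are limited by signal over background.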
